A study of Mus musculus with 4 samples.

Results

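The targets of ATF4 and the cytosolic tRNA synthetases were followed in splenic B cells that lack IκB-ζ. A list of 35 genes was taken by symbol, and all 35 were found among the 30041 genes for which an RNA-seq score was deposited. The cKO mice (also called knockouts) carried the genotype Nfkbiz fl/Δ Mb1 cre/+, in which Cre recombinase expressed from the B-lineage gene Cd79a (Mb1) deletes the floxed Nfkbiz allele in B cells. The control mice were Nfkbiz fl/Δ without Cre, so that the controls also carried 1 deleted allele. Cells of both groups came from C57BL/6 mice, were purified from the spleen by negative depletion, and were stimulated with LPS, the bacterial cell wall component that engages Toll-like receptor 4, for 72 h. The sample labels give the LPS dose as 20 mg/ml and the methods of the study as 20 μg/ml. There were 2 samples in each group, numbered 1 and 2. The number and age of the mice behind each sample are not given in the sources used here, so the p-values measure only the spread between these samples. The comparison asked how the absence of IκB-ζ changed the B cell transcriptome after LPS. Only the knockouts carried Cre. Effects of Cre or of the altered Cd79a allele therefore cannot be told apart from those of IκB-ζ loss.

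ATF4 is a transcription factor whose mRNA is translated preferentially when the initiation factor eIF2 is phosphorylated, for example during amino acid shortage or endoplasmic reticulum stress. It acts as a dimer, often with a C/EBP factor, and induces genes for amino acid synthesis, for the mitochondrial folate pathway, for amino acid transport and for charging tRNAs, together with stress genes such as Ddit3, which encodes CHOP. Proliferating lymphocytes draw on serine synthesis and one-carbon metabolism for nucleotides, and tRNA synthetases supply the aminoacyl-tRNAs that growing and secreting cells consume.

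The site that ATF4 binds with a C/EBP partner has the core TGATGNAA, and matches to it on either strand were sought in the RefSeq promoter windows of the members, which run from 250 bases before to 50 bases after the gene start on GRCm38.p6. Of the 35 members, 29 were matched to a window, and Cars, Cth, Eif4ebp1, Lars, Nars and Wars were not. The core was present for 10 of the 29 members (34.5%), against 3.97% of all 32851 promoter windows. The members were counted by gene and the rest by window. The list was drawn up to hold ATF4 targets, so these shares are a description and not a test. It was found for 5 of the 8 matched tRNA synthetases (62.5%) and for 0 of the 8 serine and one-carbon genes. No other motif was sought. A match is a description of the letters and not a measured binding site.

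The 30 bases around a match are shown for 8 of these members, to let the sites be compared, each in the direction of its gene with the core or its reverse complement in capitals. In order, they lie at chr2:119351038-119351067, chr6:55037960-55037989, chr13:49682126-49682155, chr7:126625562-126625591, chr11:120643833-120643862, chr15:11399655-11399684, chr2:152344028-152344057 and chr4:129189895-129189924 of GRCm38.p6.
Chac1: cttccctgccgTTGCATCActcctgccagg
Gars: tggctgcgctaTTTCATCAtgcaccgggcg
Iars: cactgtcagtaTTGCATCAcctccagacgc
Nupr1: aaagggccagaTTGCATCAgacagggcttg
Pycr1: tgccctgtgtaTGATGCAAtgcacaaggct
Tars: caggagtcccgTTGCATCAgctggttagct
Trib3: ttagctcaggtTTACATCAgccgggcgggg
Yars: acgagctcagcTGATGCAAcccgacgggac

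For Asns, the gene with the largest difference among the members, the 250 bases before the start are shown whole (chr6:7693210-7693459 of GRCm38.p6, minus strand, written in the direction of the gene). The core begins 23 bases before the start.
Asns: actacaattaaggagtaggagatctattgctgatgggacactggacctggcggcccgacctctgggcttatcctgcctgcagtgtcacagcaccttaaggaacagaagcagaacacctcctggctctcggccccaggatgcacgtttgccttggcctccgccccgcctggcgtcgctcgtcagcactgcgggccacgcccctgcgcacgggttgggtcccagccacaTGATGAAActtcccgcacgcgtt

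The scores carry no stated unit. Low scores multiplied by exon length fell on multiples of a step, as reads per exon base scaled to library size would, and if 1 step is 1 read the libraries held about 17800000 (control 1), 18300000 (control 2), 19900000 (cKO 1) and 17500000 (cKO 2) reads. The summed scores ranged from 604.2 to 637.6. The targeted gene, Nfkbiz (chromosome 16, 55811488 to 55839012 of NCBIM37, the assembly also called mm9), scored 0.02409 and 0.02264 in control B cells and 0.0127 and 0.01156 in cKO B cells, with a log2 fold change of -0.94 (standard error 0.0956, adjusted p = 0.0282 by limma). The score covers all exons, including those that are not floxed. All 8 B cell markers passed the filter on low scores, with a summed score of 4.9 to 5.51. One of them, Cd79a, into which Cre is inserted, scored 0.66695 and 0.74312 in the controls and 0.41541 and 0.40714 in the knockouts (log2 fold change -0.78, adjusted p = 0.0294 by limma). The 6 T cell markers summed to at most 0.00341 and the 5 NK cell markers to at most 0.00196. Of 10 myeloid markers, 8 had a higher mean in the knockouts, and their summed score was 0.178 and 0.171 in the controls and 0.205 and 0.21 in the knockouts. Itgam made up most of that sum, and without it the remaining 9 summed to 0.0367 and 0.0213 in the controls and 0.0703 and 0.0524 in the knockouts. The part of myeloid RNA in the results below was not tested, and in bulk RNA fewer cells of a type and less RNA per cell cannot be told apart.

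Most of the members scored lower in cKO B cells, but none of these differences passed the test across all genes. Of the 35 members, 28 reached 0.005 in one sample or more and were tested among 9727 genes. The log2 fold change, on the log2(score + 0.0001) scale, was below 0 for 25 of the 28 (89.3%), against 51.8% of all genes tested, and its median was -0.19, or 0.879-fold, against -0.0098 over all genes. At a limma adjusted p under 0.05, 0 members were lower and 0 higher, where 1.25% of all genes were lower and 0.812% higher. Before adjustment, a p under 0.05 was reached by 10 lower members (35.7%) and 0 higher ones, against 11.5% and 10.8% of all genes. The groups were separate with the knockouts lower for 17 members (60.7%), against 30.1% of all genes, and with the knockouts higher for 0, against 28.1%. With 2 samples against 2, an exact permutation test cannot give a two-sided p below 0.33.

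These counts depended on single libraries. The number of members below 0 was 25 without control 1, 27 without control 2, 22 without cKO 1 and 28 without cKO 2, and the number at an unadjusted p under 0.05 was 4, 13, 3 and 7 in that order, all of them lower. Of all genes, 8.0%, 14.2%, 5.34% and 10.1% were lower at that p in the same 4 fits. The median over the members was -0.12 without control 1 and -0.28 without control 2, against -0.011 and -0.01 over all genes. Control 1 was the highest of the 4 samples for 22 of the 28 members (78.6%), against 33.3% of all genes. Control 1 was the highest and cKO 1 the lowest for 18 of them (64.3%), against 21.5% of all genes. Control 1 also had the highest summed score of the 5 plasma cell markers (0.305, against 0.249 in control 2, 0.272 in cKO 1 and 0.223 in cKO 2). That lead rested on Igj, at 0.13385 in control 1, 0.07827 in control 2, 0.05523 in cKO 1 and 0.05721 in cKO 2. Sdc1, Xbp1 and Irf4 were each highest in cKO 1, and Tnfrsf17 scored at most 0.00021. The 6 erythroid markers summed to 0.0134 in control 1 and to 0.00263, 0.00254 and 0.00218 in control 2, cKO 1 and cKO 2. That sum rested on Hbb-b1 and Hbb-b2, while Hba-a1, Hba-a2 and Alas2 were higher in both cKO samples than in both controls. The part of these cells in the members' values was not tested.

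**Figure D1:**
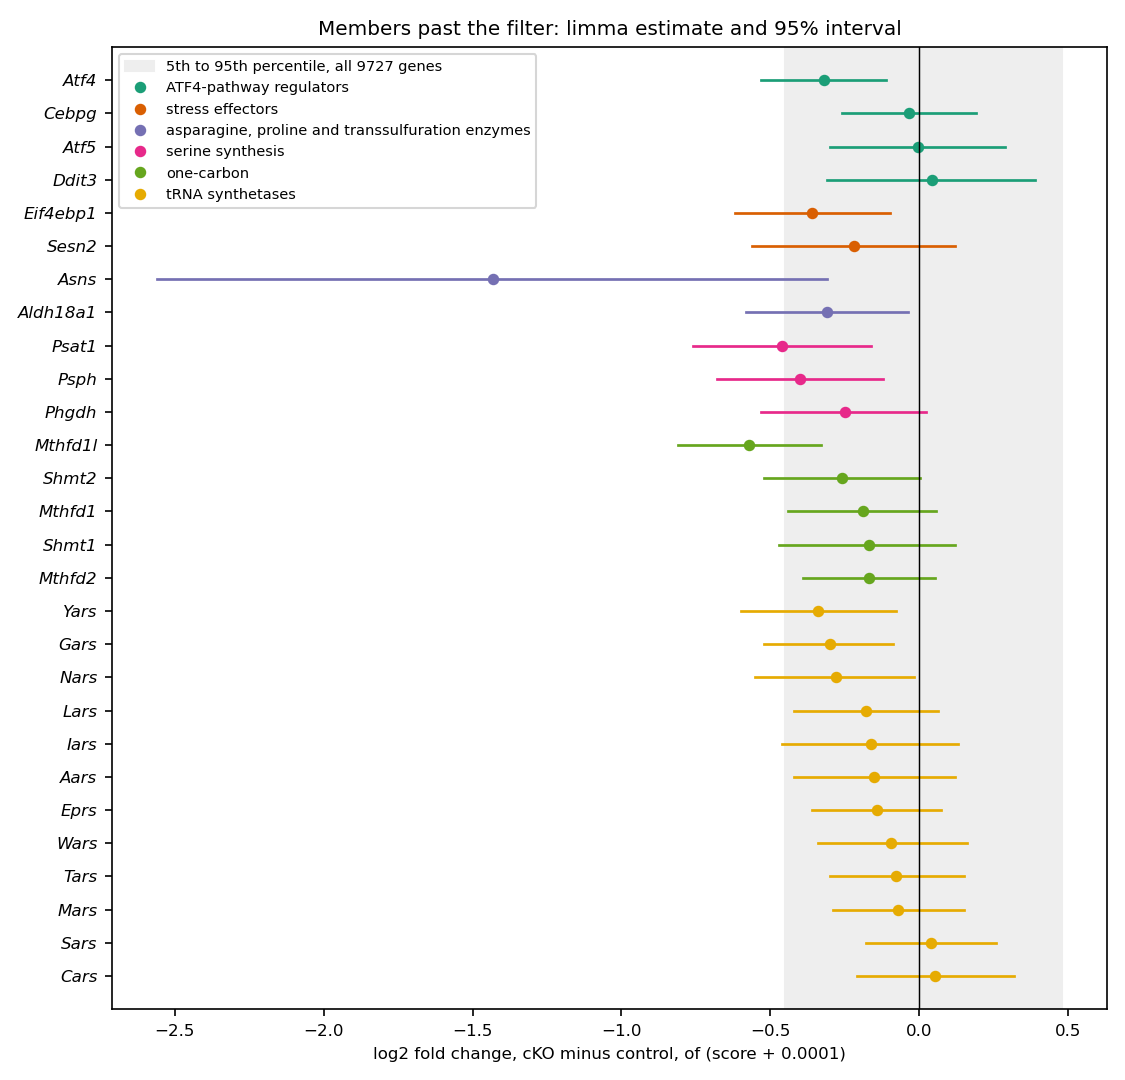
Log2 fold change (cKO minus control, of score + 0.0001) of the 28 members past the filter, on the x axis, with each gene on its own line. Points are limma estimates, bars their 95% intervals, colors the groups of members, and the grey band the 5th to 95th percentile of all 9727 genes (-0.45 to 0.48). Only Asns, Mthfd1l and Psat1 lie below the band, and no point lies above it.

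Among the transcription factors, Atf4 itself scored lower in both cKO samples, and the other 3 factors past the filter had overlapping groups. Atf4 (chromosome 15, 80085614 to 80087970 of NCBIM37) had the highest score of the members, with 0.13541 and 0.12282 in the controls and 0.10444 and 0.1025 in the knockouts. The groups did not overlap, and the mean was 0.129 ± 0.0089 (SD, n = 2) in control and 0.103 ± 0.00137 (SD, n = 2) in the knockouts. The log2 fold change was -0.32 (standard error 0.0859, 95% interval -0.53 to -0.11, adjusted p = 0.126 by limma).

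Ddit3, the pro-apoptotic C/EBP family member CHOP, scored 0.01397 and 0.01178 in the controls and 0.01195 and 0.01465 in the knockouts. The groups overlapped, with a log2 fold change of 0.044 and a 95% interval of -0.31 to 0.39. On NCBIM37 the annotated ends of Ddit3 and of Mars overlap by 68 bases on opposite strands, and the strand used in counting is not stated. Atf5, a factor related to Atf4, scored 0.01217 and 0.01346 in the controls and 0.0117 and 0.0139 in the knockouts, and its log2 fold change was -0.0051 (95% interval -0.3 to 0.29). Cebpg, a dimer partner of ATF4, scored 0.01684 and 0.01625 in the controls and 0.01552 and 0.0168 in the knockouts, with overlap, and its log2 fold change was -0.035 (95% interval -0.26 to 0.19).

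Both stress effectors past the filter scored lower in the knockouts. Eif4ebp1, the inhibitor of cap-dependent translation 4E-BP1, scored 0.01336 and 0.01529 in the controls and 0.01113 in both cKO samples, without overlap. Its log2 fold change was -0.36 (standard error 0.105, adjusted p = 0.143 by limma). Sesn2, which encodes the leucine sensor Sestrin2, scored 0.00752 and 0.00655 in the controls and 0.00596 and 0.00606 in the knockouts, which is -0.22 as a log2 fold change (95% interval -0.56 to 0.12).

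The 7 members that did not reach a score of 0.005 in any sample were Cebpb, Nupr1, Trib3, Chac1, Pycr1, Cth and Cbs. Chac1, a glutathione-degrading enzyme, scored 0.00095 and 0.00046 in the controls and 0.0003 and 0.0002 in the knockouts, which at the annotated exon length and inferred depth correspond to about 28, 14, 10 and 6 reads. Pycr1, which makes proline in mitochondria, scored 0.00224 and 0.00216 in the controls and 0.00129 and 0.00156 in the knockouts. Both genes had separate groups with the knockouts lower, as did 30.1% of all genes past the filter. In a fit with no filter on the score they had log2 fold changes of -1.15 (adjusted p = 0.338) and -0.6 (adjusted p = 0.296) by limma.

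The other members under the filter had overlapping groups. Trib3, a pseudokinase that feeds back on ATF4, scored 0.00077 and 0.00106 in the controls and 0.00081 and 0.00056 in the knockouts. Cebpb, another factor of the C/EBP family, scored 0.00086, 0.00057, 0.00081 and 0.00064 in control 1, control 2, cKO 1 and cKO 2. Nupr1, a small chromatin-associated stress protein, scored 0.00022, 0.00017, 0.0004 and 9e-05 in the same order. These 3 genes scored low in both groups. Cth and Cbs, the enzymes of transsulfuration, scored 0.00115 and 0.0003 in control 1, 0.00104 and 0.00047 in control 2, 0.00103 and 0.00028 in cKO 1, and 0.0011 and 0.00064 in cKO 2.

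Asparagine synthetase had the largest difference of any member. Asns (chromosome 6, 7625169 to 7643254 of NCBIM37), a target of ATF4 that makes asparagine from aspartate and glutamine, scored 0.00534 and 0.00272 in the controls and 0.00153 and 0.00119 in the knockouts. Both cKO samples were below both controls, but the controls themselves differed by 1.96-fold. The 4 ratios of a cKO to a control sample ran from 0.223 to 0.562, and at the inferred depth the read numbers were near 261, 136, 83 and 57 in control 1, control 2, cKO 1 and cKO 2. The log2 fold change was -1.43 (standard error 0.456, 95% interval -2.56 to -0.31), and the limma adjusted p was 0.161. Asns reached the filter of 0.005 in control 1 alone, so that the sample in which it was highest admitted it to the test. It had an adjusted p under 0.05 only when control 2 was left out, which leaves control 1 as the lone control, with an adjusted p of 0.0244 and a log2 fold change of -1.91, against -0.96 without control 1, and its adjusted p ranged from 0.0244 to 0.446 over 10 alternatives. Aldh18a1, which commits glutamate to proline synthesis, scored 0.01854 and 0.01637 in the controls and 0.01329 and 0.01489 in the knockouts, without overlap, and its log2 fold change was -0.31 (limma adjusted p = 0.195).

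The serine and one-carbon enzymes all had lower mean scores in the knockouts. All 8 were past the filter, and all 8 had a log2 fold change below 0, against 51.8% of all genes, with a median of -0.25, or 0.838-fold. The groups were separate, with the knockouts lower, for 7 of the 8, against 30.1% of all genes. Control 1 was the highest and cKO 1 the lowest sample for all 8, against 21.5% of all genes. None passed a limma adjusted p under 0.05, and 3 had an unadjusted p under 0.05 and were lower, against 11.5% of all genes. The median was -0.15 without cKO 1.

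Mthfd1l was the member closest to the threshold. It encodes the mitochondrial enzyme that releases formate for export to the cytosol (chromosome 10, 6179460 to 6373423 of NCBIM37), and it scored 0.02951 and 0.02783 in the controls and 0.01816 and 0.02041 in the knockouts. The means were 0.0287 ± 0.00119 (SD, n = 2) and 0.0193 ± 0.00159 (SD, n = 2), so that the gap between the groups was several times the spread within them. The log2 fold change was -0.57 (standard error 0.0974, 95% interval -0.81 to -0.33, adjusted p = 0.0535 by limma). Its adjusted p ranged from 0.035, without control 2, to 0.299 over 10 alternatives.

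The serine synthesis pathway runs from Phgdh through Psat1 to Psph. Phgdh, which takes 3-phosphoglycerate out of glycolysis, scored 0.07139 and 0.06379 in the controls and 0.05248 and 0.06123 in the knockouts, which is -0.25 as a log2 fold change (95% interval -0.53 to 0.023). Psat1, the aminotransferase of the pathway, scored 0.05495 and 0.04837 in the controls and 0.03422 and 0.04115 in the knockouts, and its log2 fold change was -0.46 (standard error 0.123, adjusted p = 0.125 by limma). Psph, the phosphatase that yields serine, scored 0.02421 and 0.02104 against 0.01601 and 0.01821, with a log2 fold change of -0.4 (standard error 0.114, adjusted p = 0.137 by limma). The groups were separate with the knockouts lower for all 3 enzymes, as for 30.1% of all genes, but the interval of Phgdh included 0.

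Shmt2, the mitochondrial enzyme that splits serine into glycine and a one-carbon unit, scored 0.07494 and 0.06771 in the controls and 0.05543 and 0.06392 in the knockouts, which is -0.26 as a log2 fold change (95% interval -0.52 to 0.0037). Shmt1, its cytosolic counterpart, had a log2 fold change of -0.17, and its cKO score of 0.02304 lay between the control scores of 0.02559 and 0.02246. Mthfd2, the mitochondrial dehydrogenase, and Mthfd1, the cytosolic trifunctional enzyme, had log2 fold changes of -0.17 and -0.19, with 95% intervals of -0.39 to 0.052 and -0.44 to 0.058. Mthfd2 scored 0.04248 and 0.04077 in the controls and 0.03535 and 0.03878 in the knockouts. The interval of each of these 4 genes included 0, whereas that of Mthfd1l did not.

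**Figure D2:**
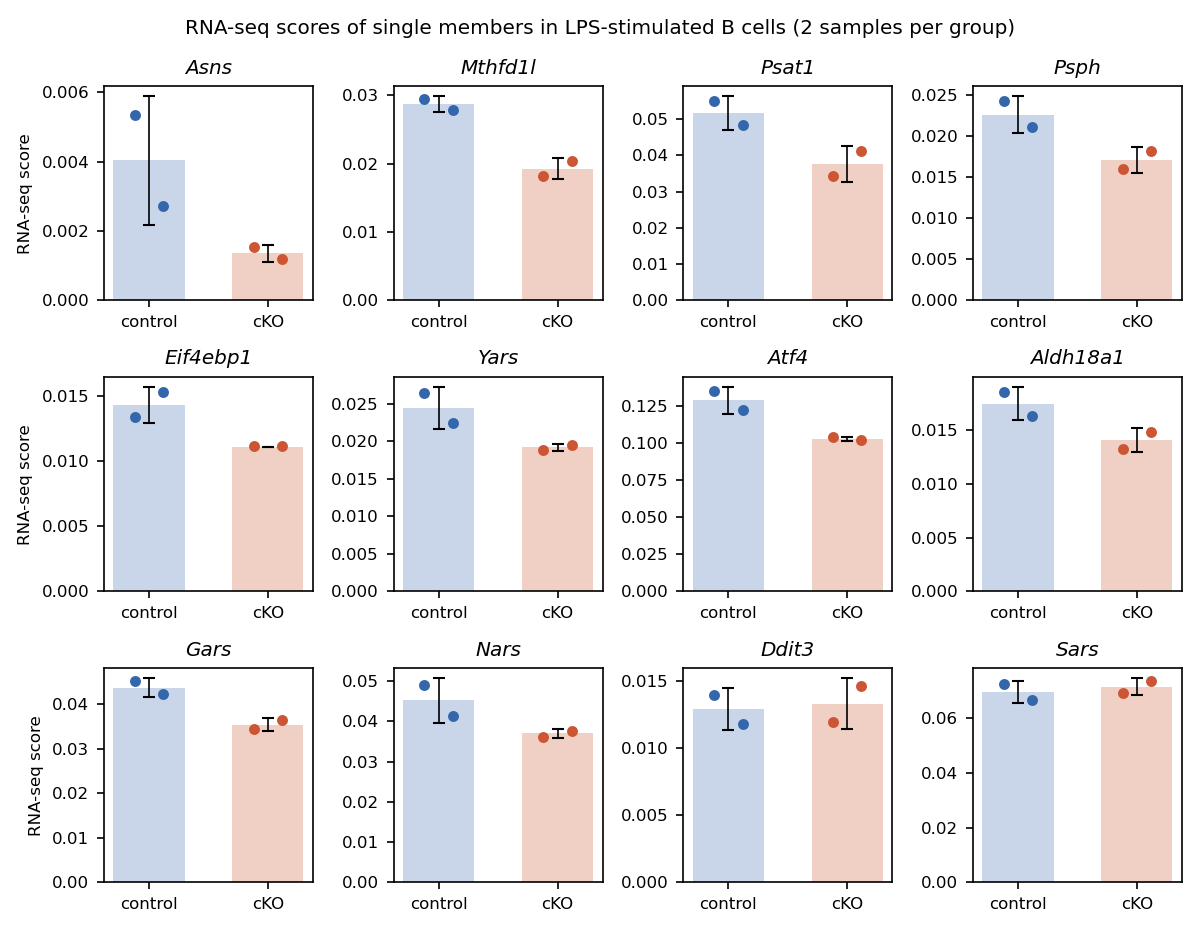
RNA-seq score (y axis, no stated unit, from 0) in control and cKO samples, for the 10 members with an unadjusted p under 0.05 and for Ddit3 and Sars. Points are the single samples, bars the group means and error bars the SD (n = 2). The cKO points lie below both control points in the 10 panels from Asns to Nars, and they overlap them for Ddit3 and Sars.

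The 12 cytosolic tRNA synthetases, the enzymes that load amino acids onto tRNAs, were all past the filter. Of these 12, 10 (83.3%) had a log2 fold change below 0, against 51.8% of all genes. Their median was -0.14, or 0.905-fold, and it was -0.063 without control 1 and -0.083 without cKO 1. The difference from the serine and one-carbon enzymes was not tested. None passed a limma adjusted p under 0.05. An unadjusted p under 0.05 was reached by 3 of the 12, all lower, against 11.5% of all genes. The groups were separate with the knockouts lower for 5 of the 12, against 30.1% of all genes. They were separate with the knockouts higher for 0, against 28.1%.

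Yars, the tyrosine enzyme (chromosome 4, 128867004 to 128896851 of NCBIM37), had the most negative value. It scored 0.02639 and 0.02243 in the controls and 0.0189 and 0.01954 in the knockouts, which is -0.34 as a log2 fold change (standard error 0.107, adjusted p = 0.158 by limma). Gars, the glycine enzyme, scored 0.0452 and 0.04225 in the controls and 0.03435 and 0.03644 in the knockouts, which is -0.3 as a log2 fold change (standard error 0.0872, adjusted p = 0.138 by limma). Nars, the asparagine enzyme, scored 0.04906 and 0.04126 against 0.03621 and 0.03771, with a log2 fold change of -0.28 (limma adjusted p = 0.211). These 3 genes had separate groups, as did Eprs and Lars, whose log2 fold changes were -0.14 and -0.18.

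Sars, the serine enzyme and the highest of the 12 by score, was at 0.07238 and 0.06665 in the controls and 0.06931 and 0.07365 in the knockouts, with a log2 fold change of 0.041 (95% interval -0.18 to 0.26). Cars, the cysteine enzyme, was the most positive at 0.054 (95% interval -0.21 to 0.32), with scores of 0.01293 and 0.01157 in the controls and 0.01211 and 0.01332 in the knockouts. The signs of Sars and Cars were the opposite without control 2 or without cKO 2. The other 5, Aars, Iars, Mars, Tars and Wars, had overlapping groups and log2 fold changes from -0.16 to -0.071.

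The members with and without the ATF4 core covered overlapping ranges. The 6 members past the filter that hold it had a median of -0.23 in log2 fold change and ranged from -1.43 to -0.077. The 17 that were matched and lack it had a median of -0.19 and ranged from -0.57 to 0.044. Psat1 and Mthfd1l, with the largest differences after Asns among the members past the filter, are among the 17. Chac1, Pycr1, Trib3 and Nupr1 also hold the core but were under the filter. In the fit with no filter their log2 fold changes were -1.15, -0.6, -0.37 and 0.068 in that order.

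**Figure D3:**
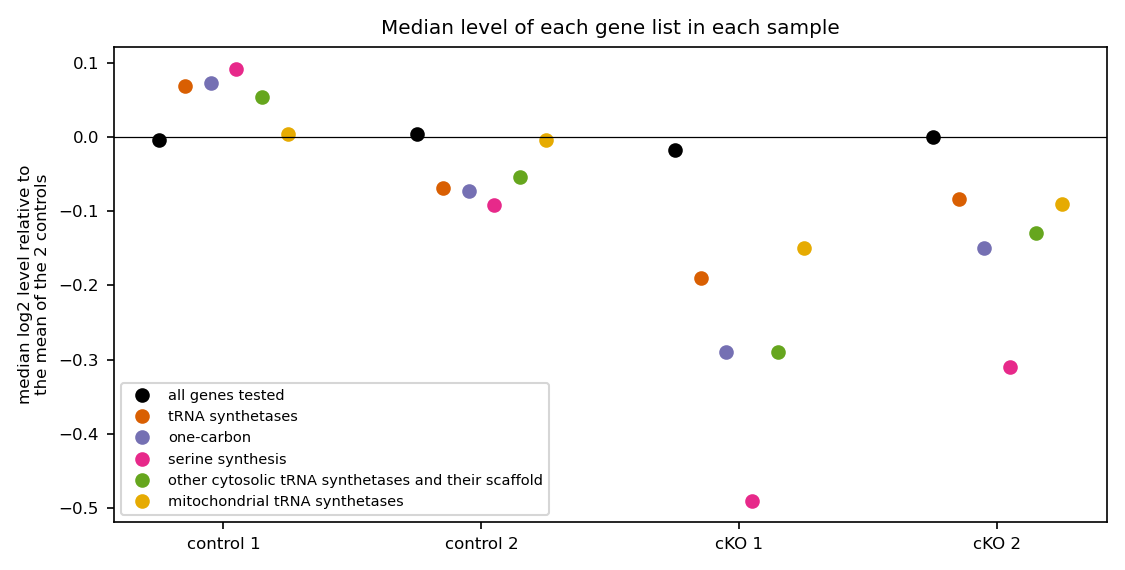
Median over each gene list of the log2 level relative to the mean of the 2 control samples (y axis), in each of the 4 samples (x axis). Colored points are lists of genes past the filter and black points are all 9727 genes. The serine synthesis genes are at 0.092 and -0.092 in the control samples and at -0.49 and -0.31 in the cKO samples, and all genes stay within 0.017 of 0.

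Other genes of the pathway were read from lists of the same kind. The 11 remaining cytosolic tRNA synthetases and scaffold proteins were close to the 12 members, with 10 of the 11 below 0 and a median of -0.18. By limma, 5 were lower at an unadjusted p under 0.05 and 0 at an adjusted p under 0.05. Of all genes, 51.8% were below 0 and 11.5% were lower at that unadjusted p. Their values ran from -0.36 for Dars, the aspartate enzyme (0.03573 and 0.03119 in the controls, 0.02558 and 0.02623 in the knockouts, limma adjusted p = 0.126), to 0.016 for Aimp2, a scaffold of the multisynthetase complex. The list of mitochondrial synthetases also held Qrsl1, which is not a synthetase (log2 fold change -0.16). Of its 18 genes, 16 were past the filter, 12 were below 0, and the median was -0.093, from -0.37 for Rars2 to 0.21 for Yars2. None of these 16 had an unadjusted p under 0.05.

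The list of eIF2 kinases and phosphatase subunits, upstream of ATF4, also held Eif2s1 and Gcn1l1 and had a median of -0.051 over 8 genes. The value most above 0 was that of Eif2ak3, the endoplasmic reticulum stress kinase PERK, which scored 0.01776 and 0.01884 in the controls and 0.02675 and 0.02237 in the knockouts. The knockouts were both above the controls, and its log2 fold change was 0.42 (standard error 0.113, adjusted p = 0.126 by limma). Eif2s1, the eIF2 subunit that these kinases phosphorylate, had the most negative value, -0.19 (95% interval -0.43 to 0.048).

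A further 15 reported ATF4 targets went both ways. Of the 10 past the filter, 5 were below and 5 above 0, and the median was -0.041. Atf3, a stress-induced factor of the same family, scored 0.00688 and 0.00441 in the controls and 0.00133 and 0.00143 in the knockouts, which is -1.92 as a log2 fold change (standard error 0.336, adjusted p = 0.0563 by limma). Like Asns, it reached the filter in control 1 alone. Ndrg1, a stress and hypoxia gene, had the most positive value, 0.56 (95% interval -0.011 to 1.14, limma adjusted p = 0.231). Of 16 other genes of the folate and methionine cycles, 11 were past the filter. Of these, 7 were below 0 (63.6%, against 51.8% of all genes), with a median of -0.12. Mtrr, methionine synthase reductase, was the most negative of them at -0.54 (0.00983 and 0.00989 in the controls, 0.00661 and 0.00687 in the knockouts, limma adjusted p = 0.0772), and Fpgs, which retains folates in the cell, was the most positive at 0.26. Across these 5 lists, 0 genes passed an adjusted p under 0.05 by limma, and an unadjusted p under 0.05 was reached by 11 lower and 2 higher genes. The lower ones were 5 of 11 in the cytosolic synthetase list, 2 of 10 other ATF4 targets and 4 of 11 folate and methionine cycle genes. Of all genes, 11.5% were lower and 10.8% higher at that p.

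**Figure D4:**
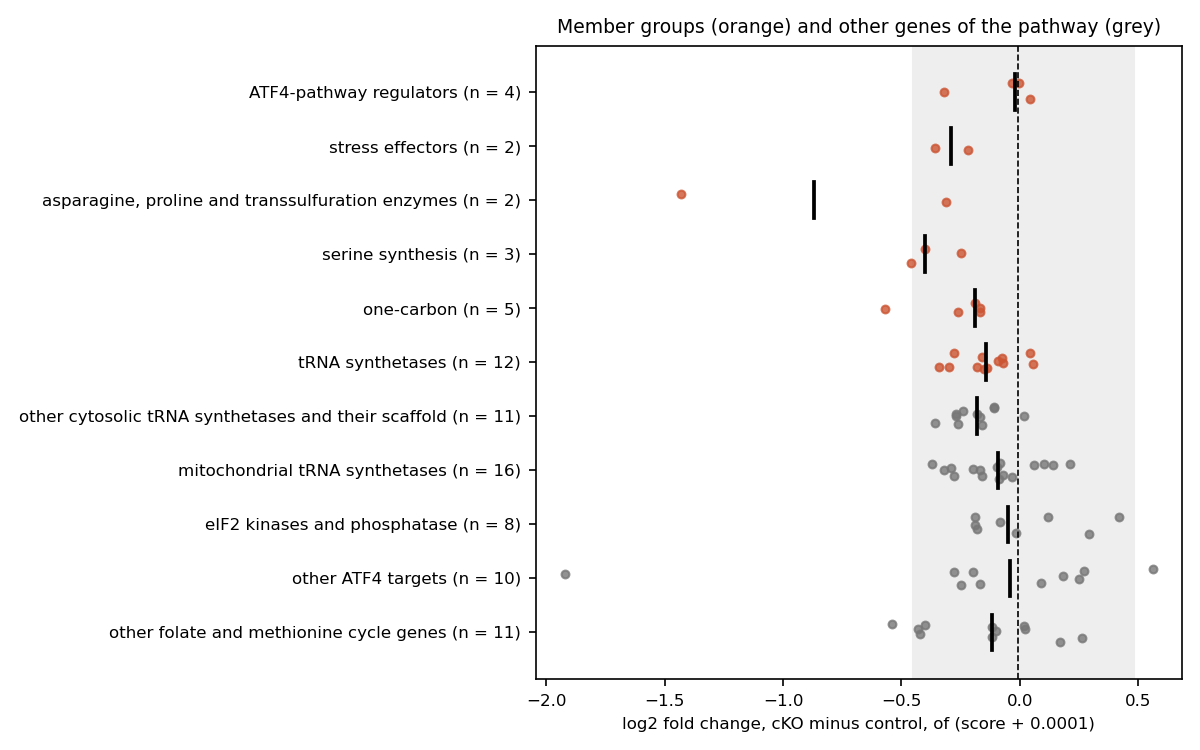
Log2 fold change (cKO minus control, of score + 0.0001) on the x axis for each gene past the filter, in the 6 groups of members (orange) and 5 other lists of the pathway (grey), 1 point per gene. Black bars are medians, the dashed line the median of all genes and the grey band their 5th to 95th percentile (-0.45 to 0.48). The cytosolic synthetase lists have medians of -0.14 and -0.18, the mitochondrial list -0.093, and Atf3 lies at -1.92.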

How the data were processed

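Poly(A) RNA was sequenced in 38-base reads. With TopHat the authors aligned them to mm9, and after requiring a Phred quality of 25 and taking out rRNA and tRNA reads they deposited a score per gene and sample. How reads became scores is not given in the sources used here. The deposited score is printed to 5 decimals, is not a count, and its depth was inferred from its steps in genes with a single annotated transcript. In the 4 samples 75.4 to 82.1% of the low scores lay within 0.2 of a whole step, and the true step could be a multiple of the one found.

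Members and lists were chosen with earlier results of these data known. The 2 cKO samples were compared with the 2 control samples, grouped by the genotype label, by a two-sided moderated test on log2(score + 0.0001) with a variance trend (limma 3.58.1, run under R 4.3.3). Benjamini-Hochberg adjustment ran over the 9727 genes that reached 0.005 in one sample or more. No count test was used, since the scores are not counts. The score filter can remove a gene that is low in both groups, and the pseudocount shrinks differences of low genes. Members were described by counts and medians beside those of all genes. Values in every sample were given for members with an unadjusted p under 0.05, for Asns, Atf4 and Ddit3, and for members under the filter, and for the highest, most negative and most positive member of a group. Some further members were given in full after their values had been seen. From the other lists the most negative and most positive gene was named. The fit was tested on 10 sets of simulated scores with known changes, drawn with the variances of the fit itself. On average 95.8% of the genes changed 2-fold were called at an adjusted p under 0.05 by limma. Of the calls, 8.55% were genes that had not been changed. Positions are from GENCODE on NCBIM37 and promoters from RefSeq on GRCm38.p6. The sequences at 2 further promoter matches are not reported here. Other steps used Python 3.11.15 (pandas 2.3.3, numpy 2.4.6, scipy 1.17.1, matplotlib 3.10.9). Alternatives covered the filter, the pseudocount, the scaling between samples, the variance trend, the replicate block and leaving out each sample.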

Additional observations from a re-analysis of the deposited data

How the results depend on the processing

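In 22 of the 28 members no alternative that tested the gene turned its sign. The 6 others had values near 0, and without control 2 they reversed to 0.067 for Atf5, -0.078 for Ddit3, -0.026 for Cars and -0.019 for Sars, without cKO 1 to 0.12 for Atf5, 0.022 for Cebpg and 0.0093 for Wars, and without cKO 2 to -0.1 for Ddit3, -0.014 for Cars and -0.003 for Sars. With a sample left out these values ran from -0.13 to 0.12 for Atf5, -0.1 to 0.19 for Ddit3, -0.091 to 0.022 for Cebpg, -0.026 to 0.13 for Cars, -0.019 to 0.1 for Sars and -0.2 to 0.0093 for Wars. Others ran from -0.29 to -0.057 for Shmt1, -0.36 to -0.14 for Phgdh, -0.29 to -0.093 for Mthfd1, -0.26 to -0.033 for Aars, -0.32 to -0.011 for Iars and -0.41 to -0.16 for Nars. Over all genes, 122 were lower and 79 higher. Dropping the filter gave 0 and 0 by limma (unadjusted p under 0.05 for 1538 and 1665), and the counts were 22 and 11 without the variance trend and 88 and 35, of 1933 genes tested, with the filter above 0.05. Leaving out a sample gave 0 to 391 lower and 0 to 439 higher, with 0 and 0 by limma without cKO 1 (519 and 428 at an unadjusted p under 0.05) and without cKO 2 (982 and 767), 161 and 136 without control 1 (778 and 700), and 391 and 439 without control 2 (1379 and 1348). The lone sample left in a group was assumed to vary like the other group. Members called lower numbered 0 to 2 with a sample left out, those 2 being Asns and Mthfd1l without control 2. Members called higher numbered 0 in every alternative. Nfkbiz kept its log2 fold change of -0.94 but had an adjusted p of 0.203 with no filter and 0.0509 without the trend, and ranged from -1.01 to -0.87 with a sample left out (adjusted p 0.00963 to 0.13). With a sample left out the median was -0.28 to -0.12 over the members, -0.21 to -0.063 over the tRNA synthetases and -0.36 to -0.15 over the serine and one-carbon enzymes. With the filter above 0.05 only Sars of the synthetases was left, at 0.041. The cause of these shifts was not tested, except where fewer genes or samples enter by construction.

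Samples share replicate numbers, but nothing in the labels pairs them, and the deviations of same-numbered samples correlated at -0.145 (Spearman -0.291) across genes. A replicate block in the fit gave 180 lower and 177 higher genes and 1 member, Mthfd1l, was called lower, with a log2 fold change of -0.57 and an adjusted p of 0.0491. Under the opposite (crossed) pairing, an alternative added after seeing the data, 230 genes were lower and 212 higher and 2 members, Psat1 and Mthfd1l, were called lower. The inferred depth limits the low members most, since the score of Chac1 in cKO 2 rests on about 6 reads.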
